A study of Homo sapiens with 15 samples.

Results

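The cell cycle genes are 53 genes whose products drive or mark passage through the cell cycle, taken from 30988 genes on the array by the name on the array or the current symbol of a probe (CDK1 is listed there under its older name CDC2). They fall into 26 genes of G1 and S phase (the G1/S genes) and 27 genes of G2 and mitosis (the G2/M genes). Gene expression was measured in MDA-MB-231, a human cell line of triple-negative breast cancer, on 15 Agilent arrays of 2 colours, 5 for each of 3 treatments. The question was which genes change when CtBP2, a transcriptional corepressor that binds NADH, is lowered or inhibited. The shCtBP2 cells are a puromycin-selected line that carries a short hairpin RNA against CTBP2, and the labels do not say that it is more than 1 line. The HIPP cells were exposed for 24 h to HIPP (sodium 2-hydroxyimino-3-phenylpropanoate) and the P4 cells for 24 h to P4 (sodium 2-hydrazone-3-phenylpropanoate), which share the phenylpropanoate part and differ in the group at carbon 2, a hydroxyimino group in HIPP and a hydrazone in P4. No dose is given with the arrays and the concentrations named elsewhere in the study differ, so HIPP and P4 values stand side by side here and were not compared. Each array carried RNA of treated cells in red and of control cells in green, always in that order. By the labels the control RNA always came from untreated cells, but the methods give shCtBP2 cells a scrambled hairpin as control.

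Cells copy their genome in S phase and divide it in mitosis, and cyclins with their partner kinases (CDKs) time both steps. Many genes of G1 and S phase are switched on by E2F transcription factors, which pocket proteins hold back until G1 CDKs act. Genes of G2 and mitosis are switched on later by B-MYB and FOXM1 through an element called CHR, often with CCAAT boxes bound by NF-Y, and the CDK inhibitor p21 lowers both groups through pocket protein complexes. Most members are therefore higher in dividing than in resting cells, and MKI67 is the usual stain for proliferation in tumours.

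Promoter windows of the members, shown for the elements that mark each phase, were read from RefSeq (GRCh38.p14). They ran from 250 bases before the transcription start to 50 after it. Only members with a single window were used, which were 31 of the 53 genes. The shares of all windows below were not limited in this way and include every window of genes that have several. The search covered both strands for E2F sites (TTTCCCGC, TTTCGCGC, TTTGCCGC or TTTGGCGC), CHR (TTTGAA or TTCGAA) and CCAAT. An E2F site stood in 9 of 13 G1/S windows (69.2%) and 1 of 18 G2/M windows (5.56%), against 3.31% of all 35116 windows. CHR stood in 13 of 18 G2/M windows (72.2%) and 1 of 13 G1/S windows (7.69%), against 16.4% of all, and CCAAT in 15 of 18 (83.3%) and 6 of 13 (46.2%), against 34.6%. Both CHR and CCAAT stood in 12 G2/M windows (66.7%) and in 6.38% of all. The first 280 bases are printed for 3 G2/M genes that fell strongly with HIPP and P4 (MKI67, TOP2A and BUB1B) and for 2 G1/S genes that rose with HIPP (CDC6 and CDC25A), in the gene's own direction with matches in capitals.
MKI67, chr10:128126394-128126673, minus strand: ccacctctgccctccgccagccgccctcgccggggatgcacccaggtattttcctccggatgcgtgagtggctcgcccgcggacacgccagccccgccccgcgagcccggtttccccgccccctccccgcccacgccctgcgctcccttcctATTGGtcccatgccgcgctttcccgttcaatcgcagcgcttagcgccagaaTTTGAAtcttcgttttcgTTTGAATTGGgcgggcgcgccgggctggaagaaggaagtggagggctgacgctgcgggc
TOP2A, chr17:40417867-40418146, minus strand: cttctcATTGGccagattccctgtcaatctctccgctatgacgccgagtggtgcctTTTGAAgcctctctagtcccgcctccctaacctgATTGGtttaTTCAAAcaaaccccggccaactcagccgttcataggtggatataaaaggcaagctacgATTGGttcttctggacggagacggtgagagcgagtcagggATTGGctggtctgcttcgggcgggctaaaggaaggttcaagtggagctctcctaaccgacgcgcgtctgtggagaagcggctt
BUB1B, chr15:40160819-40161098, plus strand: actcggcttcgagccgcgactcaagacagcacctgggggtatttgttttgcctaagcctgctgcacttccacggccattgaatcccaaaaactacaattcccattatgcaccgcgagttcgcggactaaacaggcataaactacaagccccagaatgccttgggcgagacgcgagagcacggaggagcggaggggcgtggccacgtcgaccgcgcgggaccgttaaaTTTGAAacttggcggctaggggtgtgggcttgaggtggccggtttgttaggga
CDC6, chr17:40287629-40287908, plus strand: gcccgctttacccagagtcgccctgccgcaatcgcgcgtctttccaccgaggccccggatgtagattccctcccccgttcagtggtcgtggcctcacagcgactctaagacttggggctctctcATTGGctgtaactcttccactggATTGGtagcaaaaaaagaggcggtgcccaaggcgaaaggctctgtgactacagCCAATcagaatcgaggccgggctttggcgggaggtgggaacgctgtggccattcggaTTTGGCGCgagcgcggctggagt
CDC25A, chr3:48188388-48188667, minus strand: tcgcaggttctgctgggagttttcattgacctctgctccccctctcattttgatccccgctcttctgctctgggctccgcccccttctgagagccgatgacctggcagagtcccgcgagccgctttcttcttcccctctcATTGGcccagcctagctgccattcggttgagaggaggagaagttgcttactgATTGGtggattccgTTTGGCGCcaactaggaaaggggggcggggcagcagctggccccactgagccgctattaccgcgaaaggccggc
MKI67 holds CHR 47 and 29 bases before the start, and its second CHR shares a base with a CCAAT on the other strand. TOP2A holds 2 CHR and 4 CCAAT, and BUB1B 1 CHR 23 bases before the start with no CCAAT in the window. CDC6 and CDC25A hold the same E2F letters, TTTGGCGC, beginning 8 bases after and 44 bases before the start, with 3 and 2 CCAAT and no CHR. Among the 13 G2/M genes with CHR the median of the mean log2 ratios was −0.92 with HIPP, −0.62 with P4 and −0.34 in shCtBP2 cells, and among the 5 without it −0.84, −0.55 and −0.32. Among the 9 G1/S genes with an E2F site these medians were 0.040, 0.020 and −0.080, and among the 4 without it −0.24, −0.042 and −0.27. A match of letters is a description and not a bound site.

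All values below are log2 ratios of treated over control signal, averaged over the probes of a gene and given per array from replicate 1 to 5, so that −1 is a signal of 50% of the control. Genes among the 11% with the least spread over the 10 channel signals of a treatment were left untested there, after the study's methods (the filter on low spread). Every member was well above background in both channels on all 15 arrays, for at least 1 of its probes, and 0 gene spots were saturated. Of the 43376 gene spots, 64.9 to 81% were well above background per array and channel. The defining genes of MDA-MB-231 (VIM, CD44, SPARC, AXL and CAV1) were above background on all arrays; CDH1 and PGR, which the line lacks, and PTPRC of blood cells were so on none, whereas ERBB2, EPCAM and KRT19 were so on all, PECAM1 of endothelial cells on all but 1 HIPP array and ESR1 on 2 to 5 arrays of a treatment. Several of these genes moved with the treatments. With HIPP, P4 and in shCtBP2 cells in turn, PECAM1 was −1.95, −0.74 and 0.28, CAV1 −2.07, −1.38 and −0.48, AXL −1.05, −0.75 and −0.27, CD44 1.40, 0.45 and 0.13, KRT19 0.59, 0.42 and 0.14 and SPARC −0.32, −0.076 and 0.63, and their part in the results was not tested. CTBP2, the target of the hairpin, was at 75.4% of the control in shCtBP2 cells (log2 −0.41, limma adjusted p = 0.0594), at 149% with HIPP and at 112% with P4. The arrays lay on 4 slides, and P4 was on 1 slide except for replicate 5. By the file headers those 4 P4 arrays were also scanned on another day than the other 11 arrays. HIPP lay on slides 2 and 3, shCtBP2 on slides 3 and 4 and P4 on slides 1 and 2. Treatment and slide were thus largely confounded. A fixed term for the slide reads each treatment at the mean of all 4 slides, so its values are extrapolations. They can lie outside the arrays of that treatment.

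With HIPP most cell cycle genes were lower than in control cells, and the median of the G2/M genes lay below that of the G1/S genes. Of the 44 members tested, 34 fell (adjusted p under 0.05 in limma over all genes), against 23.9% of all genes tested, and 3 rose, against 24.9%; without replicate 1, 6 rose, and 1 rose with normexp and loess (another background model with a dye correction by brightness), after centring of background-subtracted signals and with the methods' t-test, which compares both channels without pairing them by array; CDC6 was left untested under the first and CDC6 and CCND1 under the second of these settings. The median log2 ratio was −0.75 over the 27 G2/M genes and −0.35 over the 26 G1/S genes, with 0.075 over all genes. By phase 21 of 25 G2/M genes tested and 13 of 19 G1/S genes tested fell, and CDC6, CDC25A and CCND1, all of G1/S, rose. With the methods' t-test 24 fell, 7 of G1/S and 17 of G2/M, against 10.2% of all genes by that test; CCNA2, CCNE2, CDK1, CDKN3, E2F8, MAD2L1, MCM3, MCM10, PCNA and RRM2 did not pass. Of the G2/M genes 0 rose in the limma fit reported here (1, UBE2C, at an unadjusted p under 0.05, and 0 with the methods' t-test). Under other settings UBE2C rose with the slide as a fixed term, with the replicate number as a block and without replicate 1. KIF11 rose with the brightest probe. Beyond the study's fold threshold of 2.5 as well were 5 members, CDKN2C, TOP2A, MKI67, MAD2L1 and BUB1B, all lower, against 7.05% of all genes, or 2 with normexp and loess. In RNA of whole cultures, fewer cells in a phase and less RNA of a gene per cell cannot be told apart.

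With P4 most members tested were lower too, and the median of the G2/M genes lay below that of the G1/S genes. Of 42 members tested 28 fell, against 14.9% of all genes, and 0 rose (1, E2F1, at an unadjusted p under 0.05, and 0 with the methods' t-test), against 17.1%. With normexp and loess 2 rose, CCNE1 and E2F2. Without the filter on low spread 1 rose (CCNE1), as did 1 with the brightest probe (E2F2) and 1 with the replicate number as a block (E2F1). The median was −0.59 over the G2/M genes, −0.12 over the G1/S genes and 0.078 over all genes. After centring of background-subtracted signals the G1/S median was nearer to 0, as given in the last section. By phase 22 of 25 G2/M genes tested and 6 of 17 G1/S genes tested fell. Past the fold threshold of 1.8 as well were CDKN2C, TOP2A, MKI67 and BUB1B, 4 members against 8.46% of all genes. A fixed term for the slide left 12 members that fell (AURKA, BIRC5, CCNB1, CDK1, CDKN2C, CDKN3, GMNN, KIF23, MAD2L1, TOP2A, TTK and TYMS), 1 that rose (UBE2C) and 7 past both thresholds, and with that term 6.01% of all genes fell. With the methods' t-test 6 fell (AURKA, CDK2, KIF23, MKI67, PLK1 and TOP2A), against 2.72% of all genes by that test, and 2 passed both thresholds. The members among the 28 that are missing from a list lost their call under its setting; MAD2L1 and UBE2C are not among the 28. P4 replicate 5, on the other slide, had a G2/M median of −0.59 and a G1/S median of −0.18.

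In shCtBP2 cells 17 members fell, and the medians of both phases differed by 0.064. These 17 were of 37 tested, against 6.96% of all genes, and 1 (CCNE1) rose, against 6.59%. The median was −0.29 over the G2/M genes, −0.23 over the G1/S genes and 0.023 over all genes; 11 of 20 G2/M genes tested and 6 of 17 G1/S genes tested fell. The shCtBP2 G2/M minus G1/S median was −0.19 with the slide as a fixed term and 0.0016 with the brightest probe. Past the fold threshold of 1.5 as well were 6 members (BUB1, BUB1B, FOXM1, KIF23, CCNA2 and CENPA), against 6.57% of all genes. The count that fell was 8 without replicate 4, 10 without replicate 2, 11 without replicate 5, 12 without replicate 1 and 13 without replicate 3. Under a fixed term for the slide 11 fell (4.12% of all genes), 0 rose and 10 passed both thresholds; CCNA2, CCNB1, CDK2, CDKN3, CENPA, KIF11, MCM4 and MCM6 did not pass. Of the members, 2 (CCNE1 and E2F1) rose with the slide as a random term, with each treatment fitted alone and with the methods' t-test. The random term put the correlation within a slide at −0.0579, whereas a slide effect shared by arrays would make it positive.

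**Figure D1:**
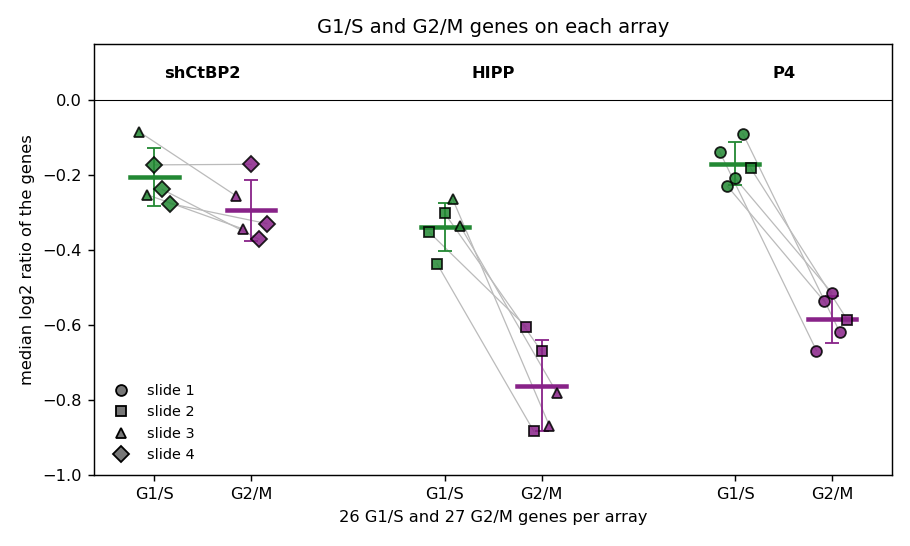
Median log2 ratio (treated over control) of the 26 G1/S genes (green) and the 27 G2/M genes (purple) on each of the 15 arrays, with the mean and SD over 5 arrays (thick line and bar); grey lines join the values of 1 array and marker shapes give the slide. The G2/M median lies 0.25 to 0.61 below the G1/S median on the 5 HIPP arrays and 0.31 to 0.53 below it on the 5 P4 arrays, and within 0.17 of it on the shCtBP2 arrays.

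On single arrays the G2/M median minus the G1/S median was −0.25, −0.45, −0.37, −0.61 and −0.45 with HIPP, and −0.53, −0.31, −0.31, −0.53 and −0.41 with P4. In shCtBP2 cells it was −0.17, −0.092, 0.0015, −0.13 and −0.053. The median of the G2/M members was thus below that of the G1/S members on all 10 arrays of both compounds and on 4 of 5 shCtBP2 arrays. The largest distance in shCtBP2 cells stayed short of the smallest with either compound. In the lists of other genes further below, the phase order did not hold with HIPP. Within a slide the mean of this value was −0.36 (3 arrays) and −0.53 (2 arrays) for HIPP, −0.42 (4 arrays) and −0.41 (1 array) for P4, and −0.13 (2 arrays) and −0.062 (3 arrays) for shCtBP2.

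**Figure D2:**
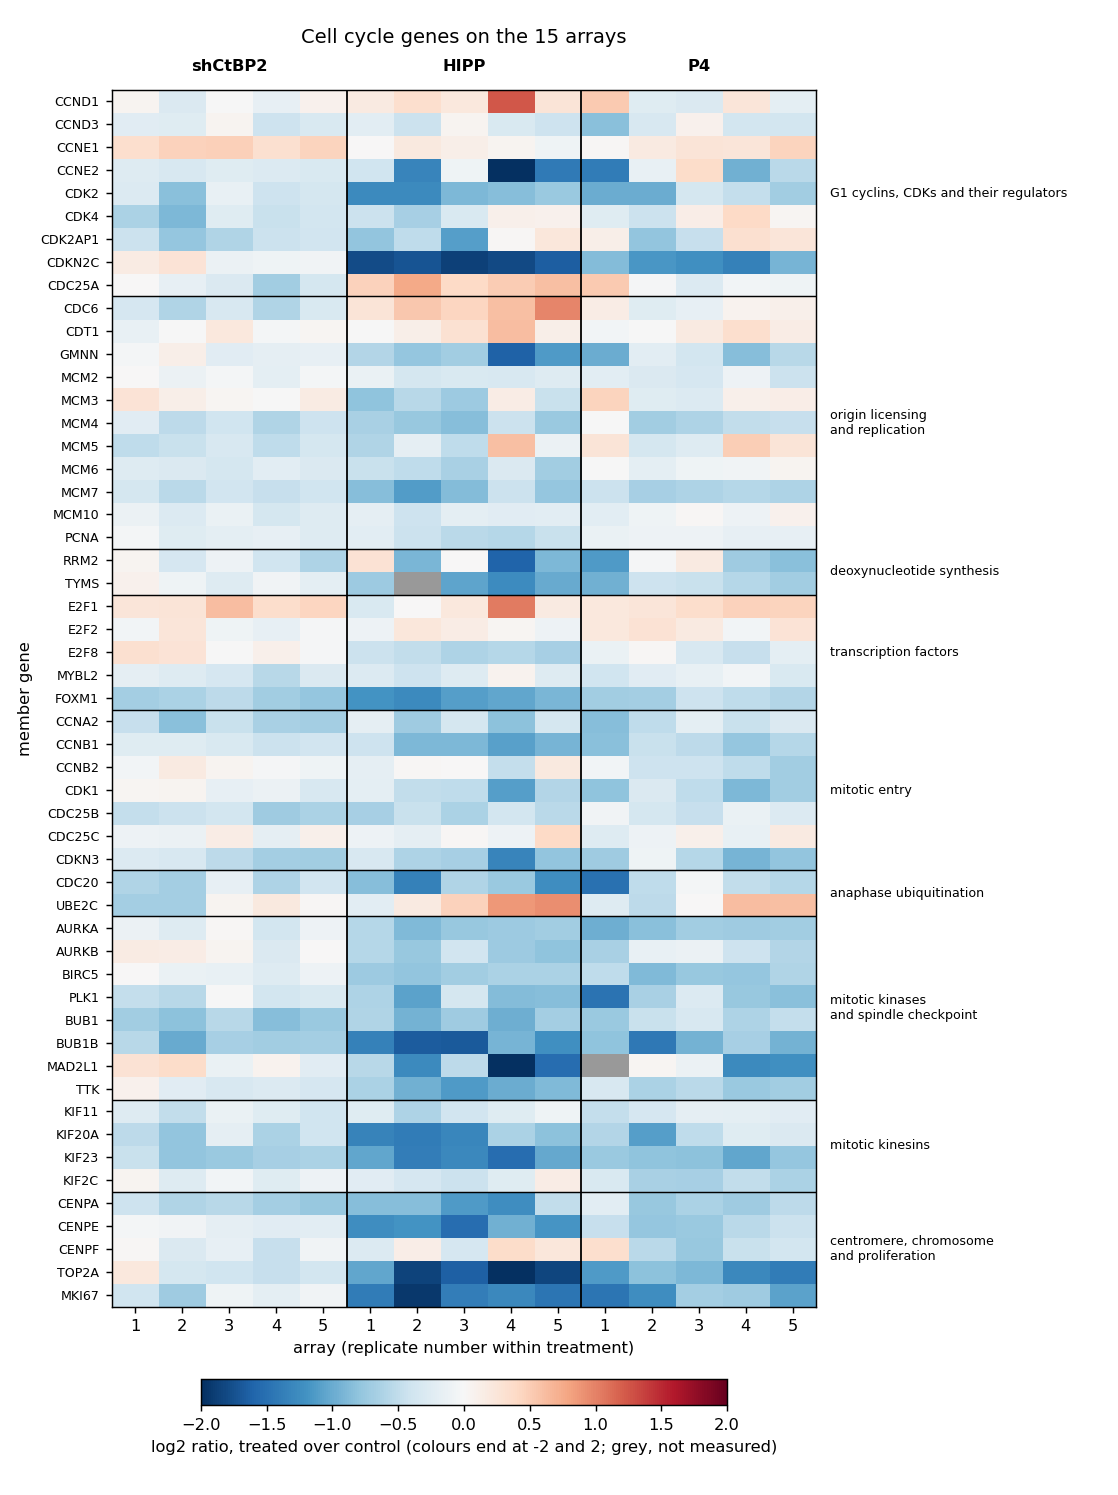
Log2 ratio (treated over control, colour) of each of the 53 members (rows, grouped by role) on the 15 arrays (columns, 5 per treatment); blue is lower and red higher than the control. Blue fills most rows from the mitotic kinases to MKI67 under HIPP and P4, CDKN2C is the darkest G1/S row (−1.77 with HIPP), and CDC6 and CDC25A are red under HIPP.

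Among the G1 cyclins, CDKs and their regulators, CDKN2C had the lowest mean of all members with both compounds. It encodes p18, an inhibitor of CDK4 and CDK6. Its array values were −1.79, −1.73, −1.87, −1.80 and −1.65 with HIPP (−1.77 ± 0.084, SD, n = 5, limma adjusted p = 5.41e-09). P4 gave −0.86, −1.17, −1.22, −1.35 and −0.93 (−1.11 ± 0.20, SD, n = 5, adjusted p = 1.11e-06). In shCtBP2 cells they were 0.16, 0.27, −0.12, −0.089 and −0.065 (0.032 ± 0.18, SD, n = 5). The HIPP arrays lay in a narrow band, and the arrays of both compounds lay below every shCtBP2 array, which scattered about 0.

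CDC25A, the phosphatase that removes the inhibitory phosphates of CDK2, rose with HIPP, with 0.45, 0.76, 0.40, 0.51 and 0.60 (0.54 ± 0.14, SD, n = 5, adjusted p = 0.00124). With P4 its mean was 0.019 ± 0.30 (SD, n = 5) and in shCtBP2 cells −0.30 ± 0.26 (SD, n = 5). All 5 HIPP arrays were above 0 and above the shCtBP2 arrays, while P4 was above 0 on replicate 1 alone. The rise of CDC25A with HIPP did not pass with the brightest probe or with the methods' t-test. CCND1, cyclin D1, the G1 cyclin that answers growth factors, gave 0.17, 0.33, 0.20, 1.24 and 0.26 with HIPP (0.44 ± 0.45, SD, n = 5, adjusted p = 0.026), and 1 array, replicate 4, stood far above the others. Without that array its mean was 0.24 and it no longer passed (adjusted p = 0.134). With P4 it was 0.52, −0.23, −0.29, 0.25 and −0.19 (0.011 ± 0.36, SD, n = 5) and in shCtBP2 cells −0.064 ± 0.16 (SD, n = 5).

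The E cyclins, CCNE1 and CCNE2, drive CDK2 into S phase. CCNE1 rose in shCtBP2 cells, with 0.33, 0.46, 0.48, 0.31 and 0.45 (0.41 ± 0.078, SD, n = 5, adjusted p = 0.00294), and was 0.059 with HIPP and 0.23 with P4, in both of which the filter on low spread kept it out of the test. With the slide as a fixed term it no longer passed in shCtBP2 cells. CCNE2 fell with HIPP (−1.15 ± 0.95, SD, n = 5, adjusted p = 0.00338), but its arrays ran from −2.50 to −0.093, and with P4 it was −0.54 ± 0.68 (SD, n = 5). CDK2 fell in all 3 treatments, by 1.01 with HIPP, 0.70 with P4 and 0.40 in shCtBP2 cells, and without any 1 of the 5 shCtBP2 arrays it no longer passed there. CDK4, the kinase of the D cyclins, fell in shCtBP2 cells (−0.52) but did not pass without replicate 1, 2 or 4. CCND3, cyclin D3, fell with P4 (−0.37), with 1 array above 0; it did not pass without replicate 4 or 5 and was left untested without replicate 1. CDK2AP1, a CDK2-associated protein, did not pass in any treatment in the fit reported here, with −0.43, −0.78, −0.60, −0.43 and −0.39 in shCtBP2 cells (−0.53 ± 0.16, SD, n = 5, adjusted p = 0.0749), −0.79, −0.51, −1.10, 0.027 and 0.22 with HIPP (mean −0.43, adjusted p = 0.0662) and 0.12, −0.78, −0.46, 0.32 and 0.24 with P4 (mean −0.11, adjusted p = 0.656). With the slide as a fixed term shCtBP2 CDK2AP1 was −1.14 (adjusted p = 0.0246), below all 5 of its arrays, and with the methods' t-test its adjusted p was 0.0128. It also passed with each treatment fitted alone in shCtBP2 cells, and with the replicate number as a block in shCtBP2 cells (adjusted p = 0.0235) and, as HIPP CDK2AP1, with HIPP (adjusted p = 0.0192). Its shCtBP2 arrays were all below 0, and its compound arrays lay on both sides of 0. The paper lists CDK2AP1 among genes it found up-regulated by quantitative PCR, the opposite of the shCtBP2 direction here.

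Origin licensing loads the MCM helicase onto DNA before S phase. CDC6, a loading factor, moved in opposite directions. With HIPP it rose, with 0.25, 0.55, 0.43, 0.60 and 0.98 (0.56 ± 0.27, SD, n = 5, adjusted p = 0.000373), and in shCtBP2 cells it fell, with −0.34, −0.60, −0.32, −0.60 and −0.31 (−0.43 ± 0.15, SD, n = 5, adjusted p = 0.0116). With P4 its mean was −0.016 ± 0.17 (SD, n = 5). The HIPP and shCtBP2 arrays did not overlap, and the P4 arrays lay on both sides of 0. Without shCtBP2 replicate 2 or 4 the fall did not pass.

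GMNN, geminin, which blocks licensing after S phase has begun, fell with HIPP (−0.96) and P4 (−0.60). Of the 6 subunits of the MCM2 to MCM7 helicase, MCM7 fell in all 3 treatments (log2 ratio −0.81 with HIPP, −0.58 with P4 and −0.43 in shCtBP2 cells), MCM4 and MCM6 fell with HIPP and in shCtBP2 cells, and MCM3 fell with HIPP; in shCtBP2 cells MCM6 did not pass without any 1 of the 5 arrays, nor MCM4 without replicate 4. PCNA, the sliding clamp of DNA polymerase, and MCM10, a factor of origin firing, fell with HIPP to −0.44 and −0.25, and the filter kept both out of the other tests. In all, 7 of 8 licensing and replication genes tested fell with HIPP, 2 of 6 with P4 and 4 of 6 in shCtBP2 cells. For deoxynucleotide synthesis, TYMS, thymidylate synthase, fell with HIPP (−1.01 ± 0.22, SD, n = 4; replicate 2 was not measured) and P4 (−0.62). RRM2, the small subunit of ribonucleotide reductase, fell with HIPP (−0.62 ± 0.77, SD, n = 5, adjusted p = 0.0423), with arrays on both sides of 0, and without replicate 2, 4 or 5 it did not pass.

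Among the transcription factors, FOXM1, which drives mitotic genes, fell in all 3 treatments. Its values were −0.67, −0.63, −0.52, −0.70 and −0.77 in shCtBP2 cells (−0.66 ± 0.092, SD, n = 5, adjusted p = 7.47e-05), −1.20, −1.27, −1.10, −1.04 and −0.92 with HIPP (−1.11 ± 0.14, SD, n = 5, adjusted p = 4.84e-08) and, under P4, −0.69, −0.67, −0.41, −0.51 and −0.59 (−0.57 ± 0.12, SD, n = 5, adjusted p = 8.82e-05). The HIPP arrays lay below every shCtBP2 array, and the P4 and shCtBP2 arrays overlapped. E2F8, a repressive E2F, fell with HIPP (−0.56). E2F1, the E2F that activates S phase genes, did not pass in the treatments where it was tested in the fit reported here; its values were 0.24, 0.26, 0.61, 0.36 and 0.44 in shCtBP2 cells (0.38 ± 0.15, SD, n = 5, adjusted p = 0.0814), 0.20, 0.24, 0.34, 0.46 and 0.44 with P4 (0.34 ± 0.12, SD, n = 5, adjusted p = 0.0741) and −0.30, 0.013, 0.21, 1.04 and 0.19 with HIPP (0.23 ± 0.50, SD, n = 5, not tested). With the slide as a fixed term shCtBP2 E2F1 was −0.047, below all 5 of its arrays. It rose with the slide as a random term, with each treatment fitted alone, with the methods' t-test and with the replicate number as a block (adjusted p = 0.0483). Under that block P4 E2F1 rose as well (adjusted p = 0.0416). All shCtBP2 and P4 arrays were above 0, and HIPP replicate 4 was far above the other HIPP arrays.

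Mitotic entry rests on CDK1 with the A and B cyclins. CCNB1, cyclin B1, gave −0.41, −0.90, −0.89, −1.09 and −0.93 with HIPP (−0.84 ± 0.25, SD, n = 5, adjusted p = 4.51e-06), −0.83, −0.45, −0.52, −0.78 and −0.57 with P4 (−0.63 ± 0.17, SD, n = 5, adjusted p = 0.000226) and −0.24, −0.24, −0.31, −0.43 and −0.38 in shCtBP2 cells (−0.32 ± 0.086, SD, n = 5, adjusted p = 0.0376). All 15 arrays were below 0, HIPP replicate 1 was the mildest of its group, and without any 1 of the 5 shCtBP2 arrays that call was lost. CDK1 fell with HIPP, with −0.20, −0.49, −0.51, −1.10 and −0.59 (−0.58 ± 0.33, SD, n = 5, adjusted p = 0.000948), and with P4, with −0.80, −0.29, −0.51, −0.90 and −0.69 (−0.64 ± 0.24, SD, n = 5, adjusted p = 0.00106); in shCtBP2 cells it was −0.10 ± 0.16 (SD, n = 5) and not tested, and with the slide as a fixed term shCtBP2 CDK1 was 0.23. Its probe stood on 10 spots per array, which within an array differed by a median SD of 0.028, less than the spread between arrays. CCNA2, cyclin A2, fell in shCtBP2 cells, with −0.46, −0.83, −0.45, −0.64 and −0.68 (−0.61 ± 0.16, SD, n = 5, adjusted p = 0.00232), and also with HIPP (−0.48) and P4 (−0.46). CDC25B, a phosphatase that activates CDK1, and CDKN3, a phosphatase that acts on CDK2 and CDK1, fell in all 3 treatments, between −0.74 (CDKN3 with HIPP) and −0.26 (CDC25B with P4). In all, 5 of 6 genes of mitotic entry tested fell with HIPP, 6 of 6 with P4 and 4 of 5 in shCtBP2 cells. CDC20, an activator of the anaphase-promoting complex, fell with HIPP (−0.96) and P4 (−0.62). UBE2C, the ubiquitin-conjugating enzyme of that complex, ran the other way with HIPP (0.44 ± 0.48, SD, n = 5, adjusted p = 0.0771) without passing in the fit reported here. UBE2C did pass as higher with HIPP with the slide as a fixed term, with the replicate number as a block and without HIPP replicate 1.

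All 8 genes of the mitotic kinases and the spindle checkpoint fell with HIPP, 6 of 7 tested fell with P4 and 2 of 6 in shCtBP2 cells. BUB1B, which encodes the checkpoint protein BubR1, fell in all 3, with −1.35, −1.67, −1.68, −0.93 and −1.22 for HIPP (−1.37 ± 0.32, SD, n = 5, adjusted p = 4.92e-07), −0.80, −1.44, −0.95, −0.67 and −0.94 for P4 (−0.96 ± 0.29, SD, n = 5, adjusted p = 6.63e-05) and −0.56, −1.001, −0.66, −0.70 and −0.68 for shCtBP2 (−0.72 ± 0.17, SD, n = 5, adjusted p = 0.00156). The ranges of its arrays overlap between treatments. BUB1, its partner kinase, was the member that fell most in shCtBP2 cells, with −0.70, −0.82, −0.56, −0.85 and −0.75 (−0.74 ± 0.12, SD, n = 5, adjusted p = 7.46e-05), and lay at −0.78 with HIPP and −0.52 with P4. MAD2L1, the checkpoint protein MAD2, gave −0.55, −1.27, −0.52, −3.01 and −1.52 with HIPP (−1.37 ± 1.02, SD, n = 5, adjusted p = 0.00177); replicate 4 was lowest by a wide margin, and replicates 1 and 3 were the mildest. It was −0.65 ± 0.70 (SD, n = 4) with P4, where replicate 1 was not measured, and 0.076 ± 0.26 (SD, n = 5) in shCtBP2 cells. The same HIPP arrays were lowest and mildest for CCNE2 and RRM2. AURKA and AURKB, the Aurora kinases, BIRC5, survivin of the Aurora B complex, PLK1, the Polo kinase, and TTK, the checkpoint kinase MPS1, fell to between −0.92 and −0.65 with HIPP. Of these AURKA (−0.78), BIRC5 (−0.70), PLK1 (−0.80) and TTK (−0.59) also fell with P4, AURKB was −0.38 there and not tested, and in shCtBP2 cells AURKA, PLK1 and TTK did not pass while AURKB and BIRC5 were not tested (means of the 5 from −0.34 to 0.019).

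Of the mitotic kinesins, which move along spindle microtubules, KIF23 fell in all 3 treatments, with −1.04, −1.39, −1.29, −1.52 and −1.02 for HIPP (−1.25 ± 0.22, SD, n = 5, adjusted p = 5.82e-08), −0.75, −0.80, −0.83, −1.04 and −0.77 for P4 (−0.84 ± 0.12, SD, n = 5, adjusted p = 1.18e-05) and −0.45, −0.79, −0.75, −0.66 and −0.63 for shCtBP2 (−0.66 ± 0.13, SD, n = 5, adjusted p = 0.000255). It serves cytokinesis, and its HIPP arrays were below every shCtBP2 array. KIF20A, also of cytokinesis, fell in all 3, at −1.10, −0.55 and −0.50; with the slide as a fixed term P4 KIF20A was 0.0046, and in shCtBP2 cells it did not pass without replicate 1, 2, 4 or 5. KIF2C, a microtubule depolymerase, fell with P4 (−0.55).

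TOP2A, topoisomerase II alpha, which untangles sister chromatids, gave −1.04, −1.86, −1.63, −2.02 and −1.83 with HIPP (−1.68 ± 0.38, SD, n = 5, adjusted p = 2.07e-07), or 31.3% of the control, and −1.13, −0.83, −0.89, −1.29 and −1.39 with P4 (−1.11 ± 0.24, SD, n = 5, adjusted p = 4.95e-05). In shCtBP2 cells it was 0.22, −0.34, −0.39, −0.46 and −0.37 (−0.27 ± 0.28, SD, n = 5, adjusted p = 0.213), with replicate 1 alone above 0, and with the slide as a fixed term shCtBP2 TOP2A was 0.15. Every compound array was below every shCtBP2 array. MKI67, the Ki-67 antigen, gave −1.39, −1.93, −1.39, −1.29 and −1.45 with HIPP (−1.49 ± 0.25, SD, n = 5, adjusted p = 4.12e-07) and, under P4, −1.46, −1.25, −0.68, −0.71 and −1.07 (−1.03 ± 0.34, SD, n = 5, adjusted p = 6.02e-05), that is 35.6% and 48.9% of the control, and −0.40, −0.71, −0.082, −0.19 and −0.076 in shCtBP2 cells (−0.29 ± 0.27, SD, n = 5), where the filter kept it out of the test. Under a fixed term for the slide P4 MKI67 was −0.85 and its call was lost (adjusted p = 0.0575). CENPE, a kinetochore motor, fell with HIPP (−1.22) and P4 (−0.59), and CENPA, the histone of the centromere, fell in all 3 treatments (−0.92, −0.57 and −0.60). CENPF, another kinetochore protein, passed in none of the treatments where it was tested in the fit reported here. It was 0.022 ± 0.31 (SD, n = 5) with HIPP and −0.36 ± 0.41 (SD, n = 5) with P4. With P4 CENPF passed as lower for probes above background, with the slide as a random term and without replicate 1.

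**Figure D3:**
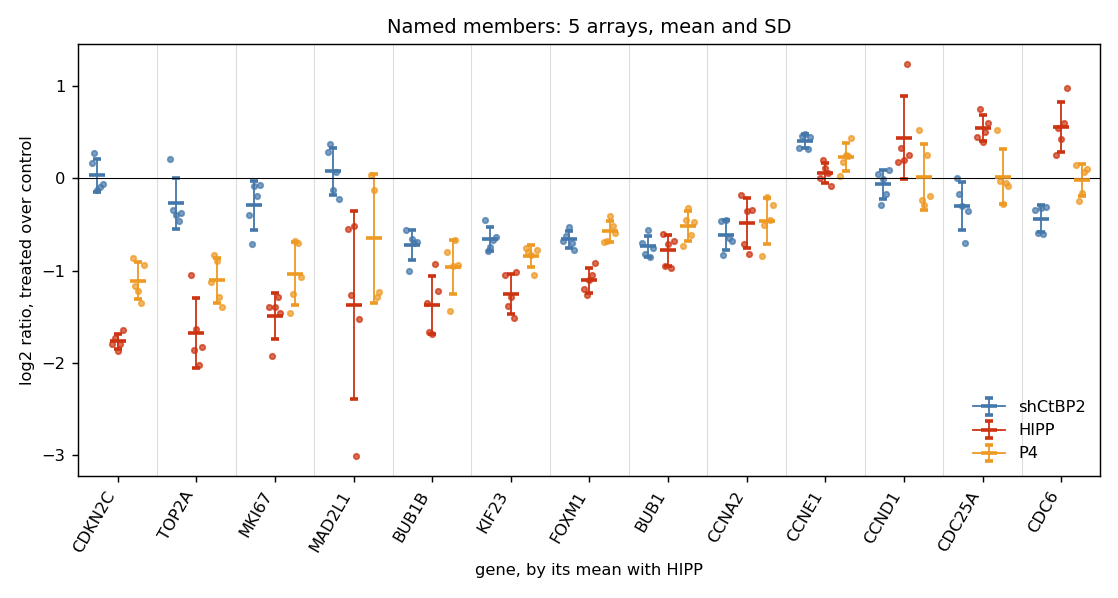
Log2 ratios (treated over control) of the 13 members that were, for some treatment and direction, among the 5 with the largest mean that passed with 1 sign on every array, ordered by their mean with HIPP; points are single arrays, thick marks the mean and bars the SD over 5 arrays (4 for MAD2L1 with P4). CDKN2C, TOP2A and MKI67 lie lowest with HIPP, at −1.77, −1.68 and −1.49, and CDC25A and CDC6 are above 0 on all 5 HIPP arrays.

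In the fit reported here CDC25C, CDT1, E2F2 and MCM5 did not pass where they were tested, with means from −0.43 (MCM5 in shCtBP2 cells) to 0.23 (CDT1, a licensing factor, with HIPP). MCM5 in shCtBP2 cells passed as lower after centring, with each treatment fitted alone and with the methods' t-test. E2F2 with P4 passed as higher with normexp and loess and with the brightest probe, and CDT1 with HIPP without replicate 1. MYBL2, which encodes B-MYB, and MCM2 were kept out of every test of that fit by the filter and had means from −0.32 to −0.080. Without the filter MYBL2 fell with HIPP and in shCtBP2 cells, and MCM2 with HIPP and P4.

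Across treatments, 12 members fell in all 3 (BUB1, BUB1B, CCNA2, CCNB1, CDC25B, CDK2, CDKN3, CENPA, FOXM1, KIF20A, KIF23 and MCM7), and 12 more fell with HIPP and P4 but did not pass or were not tested in shCtBP2 cells. The count that fell in all 3 was 8 without shCtBP2 replicate 4, 8 without shCtBP2 replicate 5 and 9 without any 1 of the other 3 shCtBP2 arrays, 8 with each treatment fitted alone, and 1, KIF23, with the slide as a fixed term and with the methods' t-test; the count that fell with both compounds was 12 with the slide and 6 with that test, in place of 24. Of all genes tested in all 3, where 28 members were, 2.16% fell in all 3, and of all genes tested with both compounds, where 37 members were, 12.4% fell with both. The mean was below 0 in all 3 treatments for 36 of 53 members and for 21.2% of all genes measured. The filter on low spread removed 9 members with HIPP, 11 with P4 and 16 in shCtBP2 cells; without it, 37 of 53 fell and 3 rose with HIPP (21.9% and 23.1% of all genes), 31 fell and 1 rose with P4 (14.1% and 15.5%), and 18 fell and 1 rose in shCtBP2 cells (5.88% and 5.54%).

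Without any 1 array of their own treatment, 30 of the 34 members that fell with HIPP kept their call, as did 24 of 28 with P4 and 8 of 17 in shCtBP2 cells. Beside those named with their values above, CDKN3 did not pass in shCtBP2 cells without replicate 3, 4 or 5. CDC25B with P4 did not pass without replicate 5 and was left untested by the filter without replicate 2 or 3. The filter also left CDC20 with P4 untested without replicate 1, and with HIPP it left MCM10 untested without replicate 1 or 2, CCNA2 without replicate 3 and MCM6 without replicate 5. KIF11 did not pass in shCtBP2 cells without replicate 1, 2 or 4, nor with P4 without replicate 2. The filter left KIF11 untested without shCtBP2 replicate 5 and without P4 replicate 1 or 5. With normexp and loess the filter left 9 of the 34 falls with HIPP untested, and RRM2 did not pass.

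A ratio tested against 0 can hold a dye effect of the gene, since the dyes were never exchanged; the difference between treatments cancels a dye effect common to the arrays. HIPP minus shCtBP2 was tested for 31 members that had passed the filter in both, and 15 were lower with HIPP, against 14.1% of all genes tested, and 2 higher, against 12.3%. The lower ones were led by CDKN2C (−1.80 ± 0.13, SE, limma adjusted p = 4.67e-07), MAD2L1 (−1.45 ± 0.42, SE, adjusted p = 0.021), TOP2A (−1.40 ± 0.19, SE, adjusted p = 8.68e-05) and CENPE (−1.08 ± 0.12, SE, adjusted p = 1.68e-05). The 2 higher ones were CDC6 (1.00 ± 0.14, SE, adjusted p = 0.000132) and CDC25A (0.84 ± 0.16, SE, adjusted p = 0.00129). By phase, 10 of 18 G2/M genes and 5 of 13 G1/S genes were lower with HIPP. FOXM1 and BUB1B fell in both treatments and were lower with HIPP than in shCtBP2 cells, by 0.45 and 0.65, while BUB1 differed by −0.044 and CCNA2 by 0.13 without passing.

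P4 minus shCtBP2 was tested for 32 members, and 4 were lower with P4, against 5.97% of all genes: CDKN2C (−1.14 ± 0.13, SE, limma adjusted p = 5.74e-05), TOP2A (−0.83 ± 0.19, SE, adjusted p = 0.0118), AURKA (−0.61 ± 0.11, SE, adjusted p = 0.00265) and CENPE (−0.44 ± 0.12, SE, adjusted p = 0.0298). None was higher in limma (4, CDC25B, CDC6, CDK4 and MCM5, at an unadjusted p under 0.05), against 6.16% of all genes. All 4 were also among the members lower with HIPP, but both differences share the shCtBP2 arrays. The count was 2 without shCtBP2 replicate 1 and 2 without shCtBP2 replicate 3, and 0 with the slide as a fixed term. It was 17 with normexp and loess (15 lower and 2 higher), 9 without the filter on low spread, 9 for probes above background, 7 with the series matrix values and 7 with the replicate number as a block (6 lower and 1 higher).

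**Figure D4:**
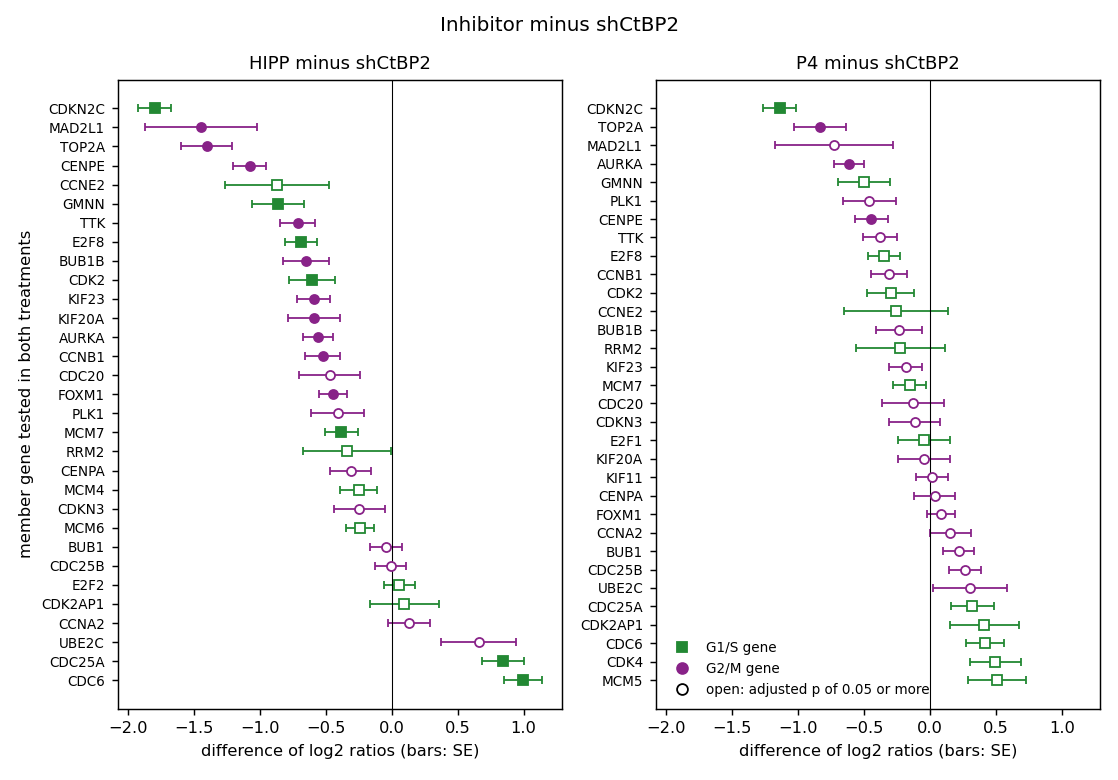
Difference of the mean log2 ratios for each member tested in both treatments, HIPP minus shCtBP2 (left, 31 genes) and P4 minus shCtBP2 (right, 32 genes), with the SE of the limma fit; squares are G1/S and circles G2/M genes, filled where the adjusted p is under 0.05. With HIPP, 15 filled markers lie below 0 and 2 above it (CDC25A and CDC6); with P4, 4 lie below 0.

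Of the members, 11 had more than 1 probe, and in 4 of them the probes differed by at least 0.75 with HIPP. The first 30 of the 60 bases of these probes are printed, since the gene means above rest on them; coordinates follow hg17, as the array was annotated, probes are numbered by position, and the exons they lie in were not analysed here.
KIF11 probe 1, chr10:94403444-94403503, plus strand: aacacactggagaggtctaaagtggaagaa
KIF11 probe 2, chr10:94404607-94404666, plus strand: acactccaagacctgtgccttttagagaag
CCNB2 probe 1, chr15:57202412-57202471, minus strand: tgtgtagttaagcaccaaacagcagagaga
CCNB2 probe 2, chr15:57204431-57204490, plus strand: ttgattttgtacatagtcctctggtctatc
CDC25A probe 1, chr3:48174128-48174187, minus strand: tgatgaatcatcaccggttgtccccttatc
CDC25A probe 2, chr3:48175154-48175213, minus strand: actgtgccacaatgcagttctgagcaccgt
CCND1 probe 1, chr11:69167820-69167879, plus strand: ctggccgcaatgaccccgcacgatttcatt
CCND1 probe 2, chr11:69176451-69176510, plus strand: acattgccaggatgataagttcctttcctt
CCND1 probe 3, chr11:69177414-69177473, plus strand: gctctattccaaaaaggttgctgtttcaca
KIF11, the kinesin Eg5 that pushes spindle poles apart, has probes that start 1163 bases apart on the same strand. With HIPP probe 1 gave 1.07, 0.98, 1.05, 0.90 and 1.34 (1.07 ± 0.17, SD, n = 5) and probe 2 gave −1.56, −2.21, −1.83, −1.38 and −1.53 (−1.70 ± 0.33). The same order held with P4 (0.28 ± 0.21 and −0.85 ± 0.25) and in shCtBP2 cells (−0.0034 ± 0.14 and −0.60 ± 0.18). No array of a treatment overlapped between the probes, so the means of KIF11, −0.32, −0.29 (adjusted p = 0.0215) and −0.30 (adjusted p = 0.0322), describe neither probe.

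CCNB2, cyclin B2, is a gene of the plus strand in RefSeq, and its probe 1 lies on the minus strand; it was the only 1 of the 39 member probes with a known strand on both sides that lay opposite its gene (191 of 15027 over the array). With HIPP probe 1 was 0.57 ± 0.42 and probe 2 −0.74 ± 0.20, with P4 −0.24 ± 0.56 and −0.59 ± 0.20, and in shCtBP2 cells 0.20 ± 0.17 and −0.17 ± 0.090 (SD, n = 5 each). With probes on the gene's own strand alone, 35 members in place of 34 fell with HIPP, with a setting added once the data had been seen. CDC25A stood at 0.16 ± 0.16 on probe 1 and 0.92 ± 0.15 on probe 2 with HIPP, both above 0. CCND1 with HIPP was 0.39 ± 0.50, 0.95 ± 0.63 and −0.0115 ± 0.32 on probes 1 to 3, and probe 3, which stood on 10 spots, did not follow the other 2. Elsewhere the probes of a gene lay within 0.45 of each other, as for PLK1 (0.019 to 0.15 apart).

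**Figure D5:**
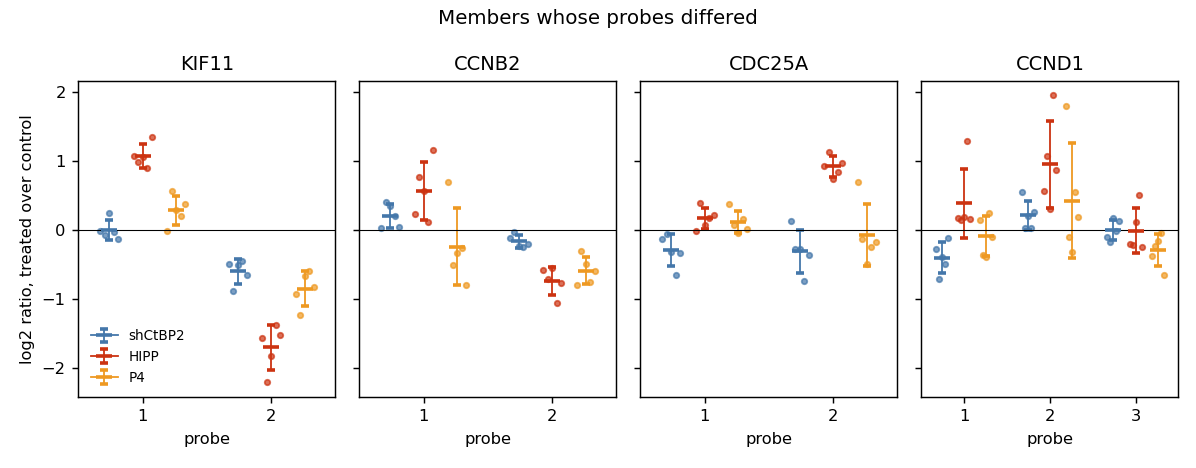
Log2 ratios (treated over control) of the single probes of KIF11, CCNB2, CDC25A and CCND1, numbered by position; points are arrays, thick marks the mean and bars the SD over 5 arrays. With HIPP the KIF11 probes lie at 1.07 and −1.70 and the CCNB2 probes at 0.57 and −0.74.

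Genes of the same pathways that are no members were read from 4 lists. Their counts stand beside the same shares of all genes as those of the members. Of 30 other G2/M and spindle genes, 17 of 28 tested fell and 4 rose with HIPP, 17 of 25 fell and 1 rose with P4, and 6 of 20 fell in shCtBP2 cells, with medians of −0.30, −0.38 and −0.091. With HIPP the condensin subunit SMC2 (−1.11, adjusted p = 6.23e-06) and DLGAP5, a spindle protein (−1.10, adjusted p = 1.93e-07), fell most, with P4 SPC24 of the NDC80 kinetochore complex (−0.98, adjusted p = 0.00042) and the centrosome kinase NEK2 (−0.73, adjusted p = 0.00033), and in shCtBP2 cells the condensin subunits NCAPH (−0.57, adjusted p = 0.00218) and NCAPD2 (−0.50, adjusted p = 0.00837). Of 21 other replication genes, 13 of 19 tested fell and 3 rose with HIPP, 10 of 16 fell and 1 rose with P4, and 1 of 12 fell in shCtBP2 cells, with medians of −0.51, −0.35 and −0.11. With HIPP the other replication genes thus had a lower median than the other G2/M genes, opposite to the phase order of the members. With P4 the medians of these lists lay near each other (−0.35 and −0.38). POLE2, a subunit of DNA polymerase epsilon, fell with HIPP (−1.49, adjusted p = 3.27e-05) and P4 (−1.04, adjusted p = 0.00174), POLA1 of polymerase alpha with HIPP (−1.22, adjusted p = 3.24e-05), the flap endonuclease FEN1 with P4 (−0.93, adjusted p = 8.23e-06) and the clamp loader subunit RFC3 in shCtBP2 cells (−0.39, adjusted p = 0.0225). FEN1 fell with HIPP as well (−0.91, adjusted p = 1.84e-06), and RFC3 with HIPP (−1.14, adjusted p = 6.00e-07) and P4 (−0.39, adjusted p = 0.0109).

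Of 9 CDK inhibitors and pocket proteins, 2 of 6 tested fell and 3 rose with HIPP, 2 of 7 fell and 3 rose with P4, and 1 of 8 fell and 2 rose in shCtBP2 cells. Of all genes tested, as given above, 23.9% fell and 24.9% rose with HIPP, 14.9% and 17.1% with P4, and 6.96% and 6.59% in shCtBP2 cells. CDKN2B, the gene of p15, is among the 3 that rose with each compound but was well above background on 0 HIPP arrays in either channel, and with P4 on 1 array in the treated channel and 0 in the control channel, so no fold is given; without it 2 of 5 tested fell and 2 rose with HIPP, and 2 of 6 fell and 2 rose with P4. CDKN1A, which encodes p21, rose with HIPP (1.32 ± 0.22, SD, n = 5, adjusted p = 1.97e-06) and P4 (1.06 ± 0.44, SD, n = 5, adjusted p = 7.16e-05), above 0 on all 10 arrays. The probe signal of CDKN2A, the gene of p16 and p14ARF, rose with HIPP (0.84, adjusted p = 1.36e-05). Whether that signal came from transcripts of p16 or p14ARF was not tested. In shCtBP2 cells CDKN1B, the gene of p27, fell (−0.41, adjusted p = 0.0131) and CDKN2D, the gene of p19, rose (0.39, adjusted p = 0.0295). CDKN1B also fell with P4 (−0.43, adjusted p = 0.00432), while CDKN2D fell with HIPP (−0.55, adjusted p = 0.00079) and P4 (−0.31, adjusted p = 0.0414). Of the pocket protein genes, RBL2 fell with HIPP (−0.63, adjusted p = 0.000315), RBL1 rose with P4 (0.34, adjusted p = 0.0378) and RB1 rose in shCtBP2 cells (0.22, adjusted p = 0.0466). Of 15 other cyclins, CDKs and factors of the E2F and DREAM complexes, 3 of 12 tested fell and 3 rose with HIPP, 4 of 13 fell and 2 rose with P4, and 1 of 11 fell in shCtBP2 cells; CCND2, cyclin D2, which did not pass, was near background. E2F5, a repressive E2F that works with pocket proteins, fell with HIPP (−2.33 ± 0.60, SD, n = 5, adjusted p = 1.9e-07) and P4 (−1.13 ± 0.46, SD, n = 5, adjusted p = 0.00051), CCNG1, cyclin G1, with HIPP (−1.92 ± 0.35, SD, n = 5, adjusted p = 2.29e-08), CCNF, cyclin F, with P4 (−0.90, adjusted p = 0.000193), and E2F4, another repressive E2F, in shCtBP2 cells (−0.51, adjusted p = 0.00445). CCNG1 fell with P4 as well (−0.89, adjusted p = 0.000105). These are limma values adjusted over all genes, each from 5 arrays.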

How the data were processed

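RNA of treated (Cy5) and control (Cy3) MDA-MB-231 cells was hybridised to 15 Agilent whole human genome arrays. The authors scanned them and corrected background and dye with Feature Extraction (version 9.5.3.1, from the file headers), and deposited signal intensities per spot together with log10 ratios. A ratio within an array depends on that correction, and with no dye swap it can hold a dye effect of the gene.

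The signals, written with decimal commas, were read as log2 of Cy5 over Cy3. Non-uniform spots and population outliers in either channel were dropped (78 to 265 per array), and spots were averaged per probe and probes per gene, with symbols from RefSeq. A gene needed 3 of 5 arrays, and the 11% with the lowest interquartile range over the 10 channel signals of a treatment were removed, as the methods describe, leaving 27579 genes per treatment. All 15 arrays entered 1 limma fit (version 3.58.1, R 4.3.3), with the ratio tested against 0 and Benjamini-Hochberg adjustment over all genes at 0.05; the fold thresholds of 1.5 (shCtBP2), 2.5 (HIPP) and 1.8 (P4) are the study's. HIPP and P4 were each compared with shCtBP2 over genes tested in both. The labels number the arrays of each treatment without stating a shared culture or day; deviations from the group means correlated by 0.138 to 0.352 in all 5 same-numbered pairs of shCtBP2 and P4, over the minimum of 0.1, so the count of P4 minus shCtBP2 with the replicate number as a block stands beside that of the fit without it, which is the one reported; this did not hold in all pairs of shCtBP2 and HIPP (0.0691 to 0.306). The replicates are 5 arrays per treatment; where the labels do not say that they came from separate cultures, p-values measure the spread between these arrays, and the number of arrays limits the precision. Named with full values were, per treatment, the 5 members with the largest mean in each direction among those that passed with 1 sign on every array, plus CDK2AP1, CCND1, CDK1, CCNB1, E2F1 and MKI67. Of the other lists at most 2 genes per list and treatment were chosen, those with the largest absolute mean among genes that passed. Some of them were also given for other treatments where they passed, and RB1, RBL1 and RBL2 were added. A gene named under 1 treatment may have passed in others too. The probes of 4 members and the values of UBE2C and CENPF were chosen after values were seen. Members and lists were chosen with earlier results of these data known. Alternatives covered background and dye correction, filters, probes, slide, replicate number, the methods' t-test, the deposited log10 ratios and leaving out single arrays.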

Additional observations from a re-analysis of the deposited data

Results flagged for a closer look

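On 6 of 133 groups of 4 or 5 arrays looked at, 1 array lay far from the others of its group (Dixon's criterion at 95%, which chance meets in about 1 of 20 groups). CCND1 was 1.24 on HIPP replicate 4 and 0.17 to 0.33 on the other arrays of that group. CCNB1 was −0.41 on HIPP replicate 1 (others −1.09 to −0.89), MCM10 −0.42 on HIPP replicate 2 (others −0.23 to −0.19) and MKI67 −1.93 on HIPP replicate 2 (others −1.45 to −1.29). KIF23 was −1.04 on P4 replicate 4 (others −0.83 to −0.75), and TOP2A 0.22 on shCtBP2 replicate 1 (others −0.46 to −0.34).

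Between treatments, the log2 ratio differed (limma, adjusted over all genes tested) for 17 members between HIPP and shCtBP2 cells. HIPP minus shCtBP2 was −1.80 for CDKN2C, −1.45 for MAD2L1, −1.40 for TOP2A, −1.08 for CENPE, −0.86 for GMNN, −0.71 for TTK, −0.69 for E2F8, −0.65 for BUB1B, −0.60 for CDK2, −0.59 for KIF20A and for KIF23, −0.56 for AURKA, −0.52 for CCNB1, −0.45 for FOXM1 and −0.38 for MCM7, and it was 0.84 for CDC25A and 1.00 for CDC6. P4 minus shCtBP2 was −1.14 for CDKN2C, −0.83 for TOP2A, −0.61 for AURKA and −0.44 for CENPE.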

How the results depend on the processing

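With normexp and loess, 1 member rose with HIPP, 2 passed both thresholds with HIPP, 2 rose with P4 and 17 differed between P4 and shCtBP2. After centring background-subtracted signals, the G1/S median was −0.46 with HIPP and −0.045 with P4, and 1 member rose with HIPP. The count for P4 against shCtBP2 was 9 without the filter on spread, 9 for probes above background and 7 with the series matrix values; 1 member rose with P4 without the filter and 1 with the brightest probe, which turned the G2/M minus G1/S median in shCtBP2 cells to 0.0016. With the slide as a fixed term, 12 members fell, 1 rose and 7 passed both thresholds with P4, 0 differed between P4 and shCtBP2, 11 fell, 0 rose and 10 passed both in shCtBP2 cells, and the G2/M minus G1/S median there was −0.19. In shCtBP2 cells 2 members rose with the slide as a random term, 2 with each treatment fitted alone and 2 with the methods' t-test, by which 1 rose with HIPP and 6 fell and 2 passed both thresholds with P4. With a replicate block 1 member rose with P4, 2 in shCtBP2 cells and 7 differed between P4 and shCtBP2, and no other count of members moved by over 1.5 times; over all 15 same-numbered pairs the correlations were −0.0276 to 0.472, and 7 of 15 arrays correlated best with their own number. Leaving out 1 array of the treatments in question gave 32 to 36 members lower, 2 to 6 higher and 4 to 6 past both with HIPP, 27 to 28, 0 to 1 and 4 to 5 with P4, 8 to 13, 1 to 1 and 5 to 7 in shCtBP2 cells, 13 to 18 for HIPP against shCtBP2 and 2 to 5 for P4 against shCtBP2; over all 15 arrays left out in turn, 27 to 29 fell with P4, and 8 to 19 fell and 1 to 2 rose in shCtBP2 cells. Directions turned for P4 CCND1 (−0.022 with normexp and loess, −0.031 centred, −0.29 brightest probe, −0.12 to 0.086 leaving out 1 array, below 0 without replicate 1 or 4, −0.049), P4 CDKN2B (−0.062, normexp and loess, near background), HIPP CCNE1 (−0.12 centred, −0.014 slide), HIPP CCND1 (−0.0115) and P4 KIF11 (0.28) with the brightest probe, P4 CDC25A (−0.0084 centred, −0.13 slide, −0.11 to 0.092 leaving out 1 array), P4 CDC6 (0.028 centred, 0.27 slide, −0.057 to 0.040 leaving out 1 array, 0.021 without replicate 3), P4 CDK2AP1 (0.0057 centred, 0.62 slide, −0.22 to 0.054 leaving out 1 array), and, with the slide, P4 KIF20A (0.0046), shCtBP2 CDK1 (0.23), E2F1 (−0.047) and TOP2A (0.15); shCtBP2 CDKN2C was −0.028 to 0.071 leaving out 1 array and −6e-04 without replicate 1. Of the single-gene results 44 lost their call with the slide as a fixed term and 47 with the methods' t-test; genes not tested under a setting gave no verdict. Values and calls with the slide as a fixed term are extrapolated, as said with the slides above. The causes were not tested. Taking the probes on the gene's own strand, chosen after the data were seen, moved no count of members by over 1.5 times. With 5 arrays a treatment and every member above background, the number of arrays limits the precision.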
